A study of Mus musculus with 2 samples.

Results

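Mir320, Mir484, Mir877, Mir1224 and Mir702 are mouse microRNA genes known to make their precursors without the Microprocessor, the nuclear complex of Drosha and Dgcr8 that cuts most microRNA hairpins out of longer transcripts. They were taken as a list of 5 genes by name, out of 1174 microRNA hairpin genes of the GENCODE M21 annotation. The small RNAs came from J1, an established mouse embryonic stem cell line of strain 129S4/SvJae. The cells were grown on gelatin in a serum replacement medium with 1000 U/mL LIF, the cytokine that sustains self-renewal, for both conditions. They were kept for 6 h with SC1 at 1 µM, a compound also called pluripotin and known to promote self-renewal, or for 6 h with an equal volume of DMSO. With 1 library for each condition there is no replicate spread, and no test between conditions could be made.

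In the usual route Drosha sets the ends of the hairpin, and Dicer then cuts off its loop in the cytoplasm. Mir320 and Mir484 are known to give short hairpins directly from a transcription start, and the Mir320 precursor is known to carry a cap at its 5′ end. Mir877, Mir1224 and Mir702 are mirtrons, whose hairpin is a short intron or part of it. Splicing sets the ends of such a hairpin, followed by the opening of the lariat, and Dicer acts as for other precursors.

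The SC1 list held 1275599 reads in tags of 3 to 17 nt and the DMSO list 18870345 reads in tags of 18 to 44 nt, so the lists share no tag length and no ratio of SC1 to DMSO exists. Levels, ends and tails were therefore read from DMSO tags of 18 to 26 nt, and SC1 tags of 15 to 17 nt were counted on their own. In DMSO, 2177993 reads matched a hairpin exactly, 13.1% of the reads of these lengths. The embryonic stem cell hairpins of the miR-290 and miR-302 clusters had reads for 10 of 10 listed genes found in the annotation, and took 28.7% of the hairpin reads. Mir302a, Mir302b, Mir302c and Mir302d had 197, 31, 3 and 55 reads, so nearly all of this share came from the miR-290 cluster. Fibroblast hairpins, which would mark feeder cells, had reads for 5 of 6 genes, took 0.181%, and Mir214 was at 0 reads.

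The hairpins are shown first because the position of the product in them carries the main results. Capitals mark the most abundant DMSO tag of each hairpin. The sequences are those of RefSeq for build GRCm38.p6, 5′ to 3′, and RefSeq sequences were matched for 4 of the 5 genes, all but Mir320.
Mir484 hairpin (chromosome 16, 14159626 to 14159692, plus strand): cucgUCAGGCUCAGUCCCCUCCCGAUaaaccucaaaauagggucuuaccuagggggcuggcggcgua
Mir877 hairpin (chromosome 17, 35960730 to 35960814, minus strand): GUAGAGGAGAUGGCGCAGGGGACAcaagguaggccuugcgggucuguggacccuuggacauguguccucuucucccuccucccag
Mir1224 hairpin (chromosome 16, 20604452 to 20604536, plus strand): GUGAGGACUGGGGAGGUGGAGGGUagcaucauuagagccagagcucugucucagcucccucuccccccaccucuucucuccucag
Mir702 hairpin (chromosome 5, 136991433 to 136991541, plus strand): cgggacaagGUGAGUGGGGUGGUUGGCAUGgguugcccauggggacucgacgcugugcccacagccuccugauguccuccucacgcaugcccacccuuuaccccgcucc

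The marked product stands at the very first base of the Mir877 and Mir1224 hairpins, and inside the Mir484 and Mir702 hairpins. Mir877 and Mir1224 coincided with whole introns of 85 nt in Abcf1 and Vwa5b2. Mir702 began 9 nt upstream of an intron of Plod3, in the exon before it, and ended 2 nt short of the last base of that intron, which is 102 nt long (136991442 to 136991543). Abcf1 is known as a protein of translation initiation and Plod3 as a lysyl hydroxylase of collagen. Apart from microRNA genes, Mir320 (chromosome 14, 70443510 to 70443591, plus strand) overlapped no annotated exon on either strand and no annotated intron on its own strand. Introns on the other strand were not examined. The nearest annotated start on the other strand was that of Polr3d, a subunit of RNA polymerase III, at a distance of 63 nt. Mir484 overlapped no exon on its own strand. On the opposite strand an exon of Marf1 overlapped it, and the nearest start on its own strand was that of Nde1 at 3649 nt.

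The 5 hairpins differed widely in level in DMSO, and Mir320 held nearly all of their reads. Together they had 74550 reads, 3.42% of the hairpin reads (exact 95% binomial interval 3.40 to 3.45). Mir320 had 72656 reads and was sixth in level among 741 hairpins with reads, at 33359 reads in each 1000000 hairpin reads (RPM, interval 33121 to 33599). Mir877 had 1611 reads, 740 RPM (interval 704 to 777), and ranked 106. Mir484 had 143 reads, 65.7 RPM (interval 55.3 to 77.3), with rank 251. Mir1224 and Mir702 had 70 reads each, 32.1 RPM (interval 25.1 to 40.6). The interval of Mir484 lay above that of Mir1224 and Mir702, and these last hairpins could not be told apart in level. The intervals cover counting error only, because the reads carry no molecular identifiers and may repeat a molecule. No DMSO tag of the 5 hairpins matched another hairpin or another transcript. Reversed tags, which measure chance, gave 0 reads on them.

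**Figure D1:**
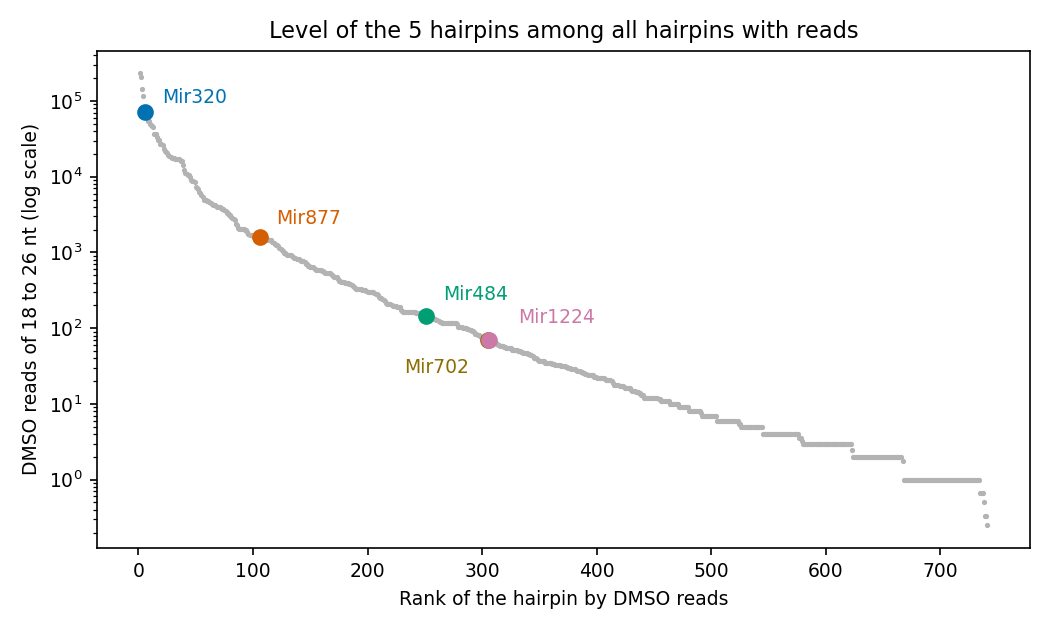
DMSO reads of 18 to 26 nt on each hairpin (log axis) against its rank among 741 hairpins with reads. Each point is a hairpin and coloured points are the 5 Microprocessor-independent hairpins; Mir320 stands at rank 6 with 72656 reads, and Mir1224 and Mir702 lie on top of each other at 70 reads.

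Nearly all reads of each hairpin came from a single arm, 3p in Mir320 and 5p in the others. Mir320 had 0 reads on the 5p arm and 72656 on the 3p arm, which allows a 5p share of up to 0.00413%. Mir877 had 1609 reads on the 5p arm and 2 on the 3p arm. Both 3p reads ended at the last base of the hairpin, which is the last base of the intron, and no later end could be counted. Mir1224 had 70 reads on the 5p arm and 0 on the 3p arm, which allows a 3p share of up to 4.29%. Mir702 had 69 reads on the 5p arm and 1 on the 3p arm, an exact copy of the annotated miR-702-3p. Mir484 had 137 reads on the 5p arm and 6 on the 3p arm, and the 3p reads began at 4 different positions between 37 and 48. The leading arm took 95.8% of the reads or more in 5 of 5 hairpins. Among 328 other hairpins with 50 reads or more, the leading arm took 95% or more in 178 (54.3%), with a median of 96.7%. Use of a single arm is thus common among the other hairpins too, and no test sets the 5 apart. Of the comparison hairpins made by the Microprocessor, Mir140 had 26 reads on 5p and 144058 on 3p, and Mir25 had 16609 on 5p and 98738 on 3p.

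Most counted reads of the mirtron products began at the first base of the host intron. All 70 Mir1224-5p reads started there (100%, interval 94.9 to 100). Of 1608 reads of the Mir877-5p arm, 1579 started there (98.2%, interval 97.4 to 98.8), 28 began 1 nt later and 1 began 2 nt later. The Mir1224 and Mir877 hairpins themselves begin at that base, and only reads within the hairpin were matched. A read that began in the exon could not be counted for them, so only later starts could lower their shares. Of 69 reads of Mir702-5p, 63 started at the first intron base (91.3%, interval 82.0 to 96.7) and 6 began 1 nt later. For Mir702 that base is position 10 of the annotated hairpin, so 0 reads began in the 9 nt of exon. The GU of the 5′ splice site therefore forms the first bases of all 3 products, as the capitals in the hairpins show.

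The start-derived hairpins differed from each other in start precision. Mir484-5p started at position 5 of its hairpin in 133 of 137 reads (97.1%, interval 92.7 to 99.2), 4 nt from the annotated hairpin end. Mir320-3p, whose start lies on the loop side where Dicer cuts, was less uniform. It started at position 48 in 65199 of 72651 reads (89.7%, interval 89.5 to 90.0), at position 49 in 5435 reads (7.48%), at position 50 in 1524 reads (2.10%) and at position 47 in 481 reads (0.662%). A shift of the start changes the seed, bases 2 to 8 of the product, by which a microRNA pairs with its targets. Among 417 arms with 50 reads or more, 302 had a higher share at the main start than Mir320-3p and 289 a higher one than Mir702-5p. The median of the 412 other arms was 97.6% (quartiles 86.6 and 99.5), and that of 202 other 5p arms was 99.0% (quartiles 93.9 and 99.7). Over 210 other 3p arms it was 94.5% (quartiles 82.4 and 99.0), and Mir320-3p lay between these 3p quartiles.

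The 3′ ends spread more than the starts, and most of all in Mir1224. Its most used end, position 24, held 21 of 70 reads (30.0%, interval 19.6 to 42.1), and positions 23, 22 and 21 held 15, 14 and 11 reads. The reads thus stepped down over several bases with no dominant end, and 400 of 417 arms had a higher share at their main end. Mir702-5p ended at position 30 in 55 of 69 reads (79.7%, interval 68.3 to 88.4), and Mir877-5p at position 24 in 1205 of 1608 reads (74.9%, interval 72.7 to 77.0). Mir484-5p ended at position 26 in 94 of 137 reads (68.6%, interval 60.1 to 76.3) and at position 25 in 29 reads. Mir320-3p ended at position 69 in 48959 reads (67.4%, interval 67.0 to 67.7) and at position 70 in 19195 reads (26.4%). In Mir320, Mir484 and Mir1224 the hairpin goes on with A after the main end. An untemplated A added there would be counted as an exact read with a later end, and how many were such was not tested. The median of the other arms was 65.2% at the main end (quartiles 48.5 and 80.2).

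**Figure D2:**
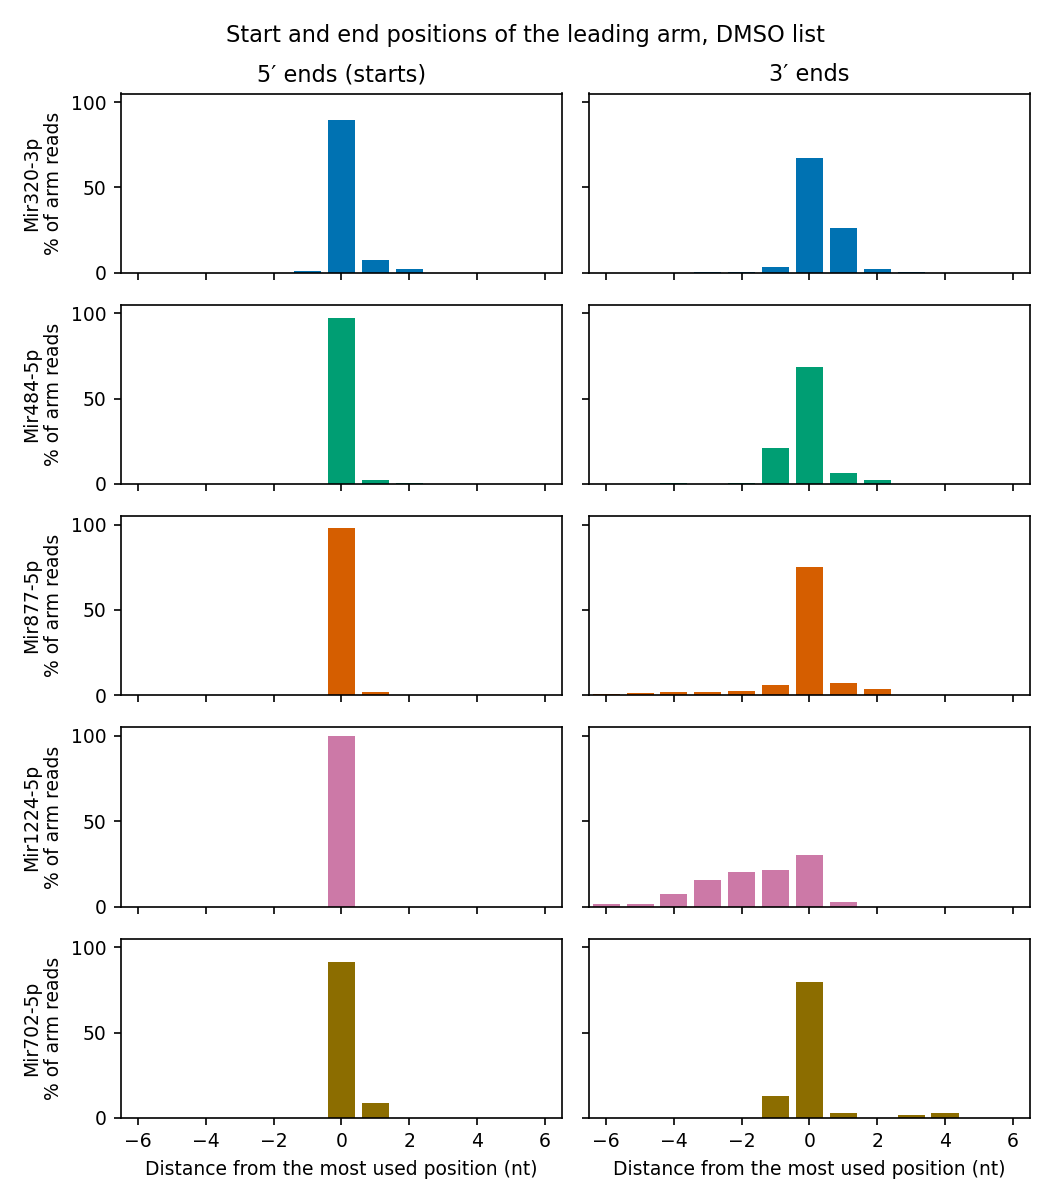
Share of the exact DMSO reads of the leading arm (percent) at each start (left) and end (right), as distance in nt from the most used position, with a row for each hairpin. Starts stand in a single bar of 89.7% or more in each row, while the ends of Mir1224-5p step down from 30.0%. Reads that began upstream of the Mir877 and Mir1224 hairpins could not be counted.

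Mir877-5p and Mir1224-5p were longer in these cells than the annotated products. Their main length was 24 nt, found in 1206 of 1608 Mir877-5p reads (75.0%) and in 21 of 70 Mir1224-5p reads (30.0%). Mir702-5p was mainly 21 nt long (81.2%), Mir484-5p 22 nt (66.4%) and Mir320-3p 22 nt (65.5%). A main length of 24 nt or more was seen in 25 of the 412 other arms (6.07%). The annotated product and the most abundant DMSO tag of both mirtrons are set side by side here, with the seed in capitals.
miR-877-5p, RefSeq, 30 reads: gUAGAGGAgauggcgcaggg
Mir877 most abundant tag, 1194 reads: gTAGAGGAgatggcgcaggggaca
miR-1224-5p, RefSeq, 11 reads: gUGAGGACuggggagguggag
Mir1224 most abundant tag, 21 reads: gTGAGGACtggggaggtggagggt

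In both pairs the seeds are the same and only the 3′ end is longer, by 4 nt in Mir877 and by 3 nt in Mir1224. The annotated 20 nt form of miR-877-5p held 30 reads against 1194 reads of the 24 nt form. For miR-702-5p and miR-484 the most abundant tag was the annotated product itself, with 54 and 91 reads. They read as follows, again with the seed in capitals.
miR-702-5p, RefSeq, 54 reads: gUGAGUGGggugguuggcaug
miR-484, RefSeq, 91 reads: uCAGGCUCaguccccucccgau

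Among 1679 mature names of the RefSeq table, the seed of miR-702-5p was shared with miR-3102-5p alone. The seeds of miR-484, miR-877-5p and miR-1224-5p were found in no other name. The 3 mirtron products differ from each other in their seeds even though each opens with a 5′ splice site.

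**Figure D3:**
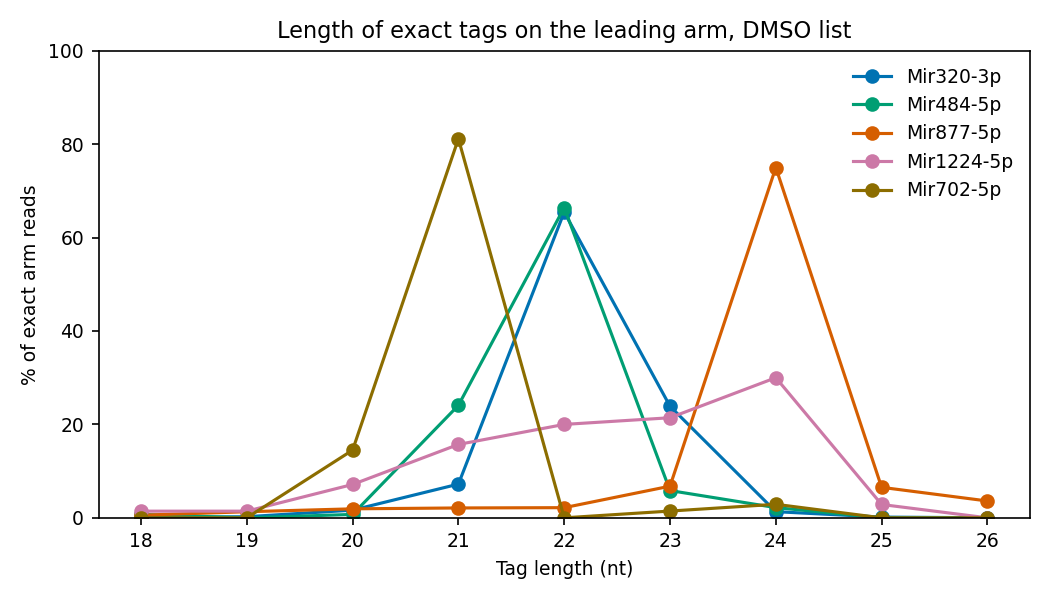
Share of exact DMSO reads of the leading arm (percent) at each tag length from 18 to 26 nt, with a line for each hairpin. Mir877-5p peaks at 24 nt with 75.0%, Mir702-5p at 21 nt with 81.2%, and Mir1224-5p has no sharp peak.

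Untemplated bases at the 3′ end were frequent on all 5 products, and U was the most frequent addition. A tailed read was a tag of 18 to 26 nt that matched the hairpin for 16 nt or more, then carried 1 to 3 bases that do not, and that matched no transcript of the reference. Enzymes that add U or A to small RNA ends are known, and U addition to mirtron precursors is known from flies. The 3′ end of a precursor lies on its 3p arm, whereas the mirtron tails counted here are on 5p products. Whether the precursors carried tails was not tested. Mir702-5p had 46 tailed reads beside 69 exact ones, a tailed share of 40.0% (interval 31.0 to 49.6). Mir1224-5p had 40 tailed reads beside 70 exact ones (36.4%, interval 27.4 to 46.1). Mir877-5p had 583 tailed reads beside 1608 exact ones (26.6%, interval 24.8 to 28.5). Mir320-3p had 19802 beside 72651 (21.4%, interval 21.2 to 21.7), and Mir484-5p had 37 beside 137 (21.3%, interval 15.4 to 28.1).

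The mirtron shares were above that of Mir320-3p by more than counting error, while the interval of Mir484-5p overlapped those of Mir320-3p, Mir877-5p and Mir1224-5p. Other arms had a median tailed share of 6.09% (quartiles 3.69 and 14.8), so all 5 products lay above the upper quartile. Higher shares were not rare, however. Mir702-5p was exceeded by 31 of 417 arms, Mir1224-5p by 35, Mir877-5p by 48, Mir320-3p by 63 and Mir484-5p by 65. Copies of a gene that share tags each count as an arm in these ranks and medians. For example, Mir467a-1 and Mir467a-2 both stood at 4.08%. The background varied with depth. The median was 5.87% over 157 other arms with 50 to 200 reads, 9.75% (upper quartile 16.5) over 78 with 1000 to 5000 reads and 5.20% over 45 with 10000 reads or more. The 10 comparison hairpins made by the Microprocessor ranged over 1.82% to 13.2%, the highest being Mir140-3p.

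The tailed shares depended on which tags were counted. With tags of 20 to 24 nt, which leave no room for a tail on a whole 24 nt product, Mir877-5p was at 8.18% and Mir1224-5p at 14.3%, both below Mir320-3p at 20.3%. With only tags of 10 reads or more Mir1224-5p was at 14.1% and Mir484-5p at 0%, while Mir702-5p was at 31.6% and Mir877-5p at 22.9%.

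U only was the most frequent kind of tail in each of the 5 products. Among the 10 comparison hairpins it was also the most frequent in Mir103-1 (75.9%), Mir103-2 (76.0%) and Mir25 (65.2%), and A only was in the rest. Reads with a U-only tail made up 9.77% (Mir484-5p) to 25.2% (Mir702-5p) of arm reads, exact and tailed. The median of the 412 other arms was 1.87% (upper quartile 5.01). Of 417 arms, 63 had a higher such share than Mir484-5p and 23 a higher one than Mir702-5p. Mir320-3p had U only in 16654 of 19802 tails (84.1%) and A only in 364 (1.84%). Mir877-5p had U only in 281 of 583 tails (48.2%), A only in 163 (28.0%) and both in 95 (16.3%). Mir702-5p had U only in 29 of 46 tails (63.0%) and A only in 12 (26.1%). Mir1224-5p had U only in 24 of 40 (60.0%) and A only in 10 (25.0%). Mir484-5p had U only in 17 of 37 (45.9%) and A only in 7 (18.9%). The 95% interval of the U-only share was 83.6 to 84.6 in Mir320-3p, above those of the other 4 products, which overlapped one another and reached 76.8 in Mir702-5p. A tails cannot be counted fully where the hairpin itself goes on with A after the main end, as in Mir320, Mir484 and Mir1224, since an added A is then an exact match. In Mir877 the next base is C and in Mir702 it is G, so there the count of A and U is not limited in this way at the main end.

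Most tails were a single base in Mir320-3p (76.8%), Mir702-5p (76.1%) and Mir877-5p (68.1%), and 22 of 40 were in Mir1224-5p. In Mir484-5p 12 of 37 tails were a single base. Another 13 of the 37 could equally be a substitution near the end followed by matching bases. The same held for 6.61% of Mir320 tails, 5.83% of Mir877 tails and 0 in Mir1224 and Mir702. Tails followed the main end in 45 of 46 Mir702 reads and in 332 of 583 Mir877 reads. In Mir320-3p, 7964 followed the main end, 8252 followed an earlier base and 3586 a later base. The most abundant tailed tags of the mirtrons each added a single base to the most abundant exact tag, shown here with that base in capitals.
Mir877, 117 reads: gtagaggagatggcgcaggggacaT
Mir702, 25 reads: gtgagtggggtggttggcatgT
Mir1224, 10 reads: gtgaggactggggaggtggagggtT

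In the most abundant tags of Mir320, Mir877 and Mir484, a substitution at a single inner position was rarer than a change of the last base. In the most abundant Mir320 tag, a base inside the tag was substituted in 0.0311% of its 45191 reads on average over 18 positions, and at 0.170% at most. Its last base was replaced in 5405 reads, 12.0% of that number. In the most abundant Mir877 tag the mean was 0.0461% per inner position, and the last base was replaced in 67 reads (5.61%). The Mir484 tag had 1 read with an inner substitution and 6 with another last base. This was not seen in the Mir1224 tag, with 1 inner and 0 last-base reads, or in the Mir702 tag, with 0 of both. Over the 10 comparison hairpins the inner mean was between 0.0227% and 0.0331%, and the last base was replaced in 0.132% (Mir21a) to 11.5% (Mir140), so the Mir140 value was close to that of Mir320.

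**Figure D4:**
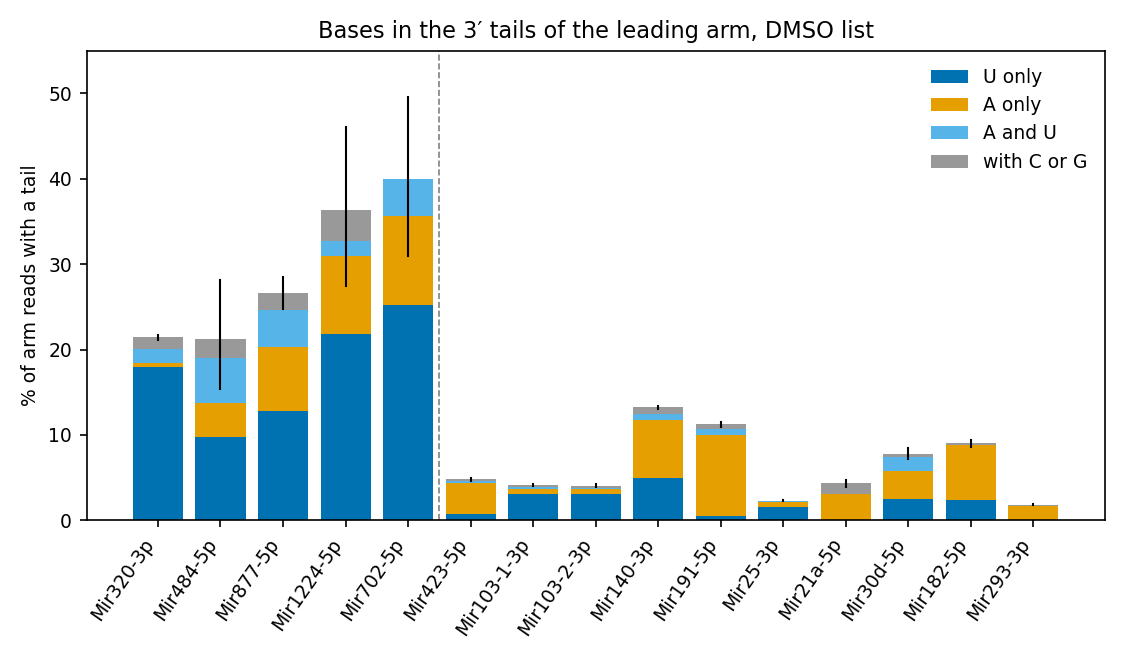
Share of leading arm reads with an untemplated 3′ tail (percent) in the 5 hairpins (left of the dashed line) and in 10 comparison hairpins made by the Microprocessor (right), split by the bases added. Black lines are exact 95% binomial intervals of the whole share. The 5 hairpins lie between 21.3% and 40.0% and the comparison hairpins between 1.82% and 13.2%. The comparison hairpins are a chosen list. Among all 417 arms, 65 had a higher share than Mir484-5p and 31 a higher one than Mir702-5p.

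**Figure D5:**
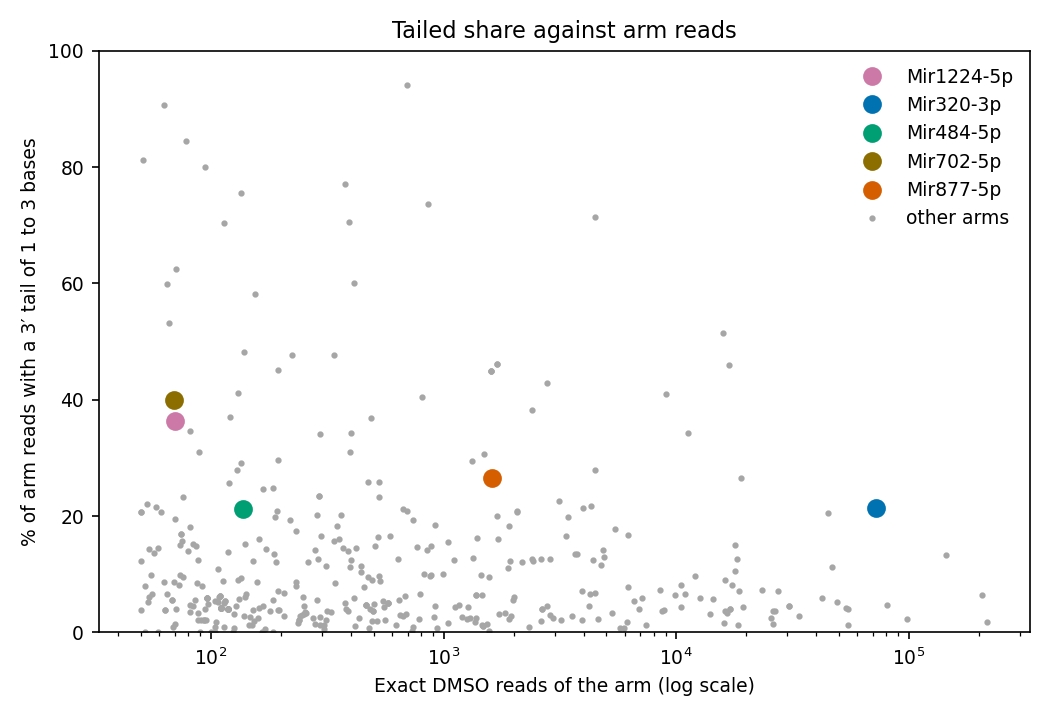
Tailed share (percent) of 417 arms with 50 exact DMSO reads or more, against those reads (log axis); coloured points are the 5 leading arms and grey points the 412 others. The 5 products lie above most grey points at every depth, and several grey points lie above them.

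Reads were also counted on the other annotated hairpins with the same kind of position. Of 21 hairpins whose ends lie within 5 nt of both ends of an annotated intron, 2 were Mir877 and Mir1224. Mir702 did not meet this rule because it begins in the exon. Hairpins that meet the rule reach at most 5 nt beyond the intron, so reads that began or ended further out could not be counted. Of the other 19, 16 had reads and 5 had 10 or more, with a median of 4 reads; over all 1174 hairpins 741 had reads, 471 had 10 or more, and the median was 3. Mir1981, in an intron of Marc2, led them with 4267 reads, of which 4258 were on 5p, and 99.98% of that arm's reads started at the first base of the intron. Its tailed share was 6.68%, below those of Mir877, Mir1224 and Mir702. Mir3102, in an intron of Arhgef17, had 136 reads on 5p and 194 on 3p; the most used end of its 3p arm, with 91 of the 194 reads (46.9%), was the last base of the intron, and 45.0% of reads were tailed. Mir7080 had 17 reads, Mir7070 had 12 and Mir6958 had 11. Beside its 12 exact reads Mir7070 had 17 tailed ones (58.6%).

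No annotated transcript start lay within 50 nt of Mir320 or Mir484 on their strand, so neither was in the list of hairpins at annotated starts. That list held 44 other hairpins, of which 25 had reads and 15 had 10 or more, with a median of 1.5 reads. It was led by Mir24-1 (1696.5 reads after equal splitting with its copy), Mir199a-2 (582), Mir760 (393), Mir3072 (298) and Mir219a-1 (247.5). The list rests on annotation alone, and several of its members are ordinary clustered microRNAs.

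The 5 hairpins were rich in G and C. Their content was 65.1% in Mir702, 63.4% in Mir320, 61.2% in Mir877, 60.0% in Mir1224 and 58.2% in Mir484, against a median of 50.9% over 1174 hairpins. Folding energy per nt varied among them. It was lowest, or most stable, in Mir320 at -0.56 kcal/mol per nt, with 82 of 1174 hairpins lower, and highest in Mir484 at -0.37 kcal/mol per nt, above the median of -0.41. These values describe the annotated hairpins, which for Mir702 include exon bases that the products do not cover.

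Short reads from these hairpins were few in the SC1 list. There were 19 reads of 15 to 17 nt (exact Poisson interval 11.4 to 29.7), or 0.0356% of 53343 SC1 reads that matched a hairpin. Mir320 had 12 of them (interval 6.20 to 21.0), in 7 distinct tags, and 7 of these reads began at the main DMSO start. Another of the 12 also matched a transcript of Msl3. Mir877 had 5 reads of a single 17 nt tag and Mir702 had 2 reads, and all 7 began at the first base of the intron. For Mir877 no earlier start could be counted. Mir484 and Mir1224 had 0 reads each, which allows up to 0.00562% of the SC1 hairpin reads. In all, 14 of the 19 began at the main start of the DMSO product. Reversed SC1 tags gave 5 reads on all hairpins and 0 on these 5. Comparison hairpins in the same list ran from 0 reads in Mir30d and 11 in Mir140 to 7821 in Mir25 and 26618 in Mir293. The DMSO list holds no tags of these lengths, so whether SC1 changed these microRNAs was not tested.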

How the data were processed

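The authors deposited, per library, raw read counts per distinct tag, not normalized, beside the tag and its length in nt. Per the submitters' processing notes, the build was mm9. How adapters were trimmed, lengths filtered and tags aligned is not given in the sources used here. A closing total line of the DMSO list was left out. Tags were matched exactly, in sense, to hairpins and transcripts of GENCODE M21, and coordinates are those of GRCm38. Tags on several hairpins were split equally. Each gene copy that shares tags still counts as its own hairpin or arm in all ranks, counts and medians. The arm was called by the side of the hairpin midpoint. An arm was anchored on its most abundant tag (10 reads or more) and took tags starting within 5 nt; tailed tags started within 2 nt. No genome was used here, so a tailed tag may match elsewhere. The list totals are those of length classes, not library depths. The members and lists were chosen with earlier results of these data known. The genes named are the 5 members, 10 comparison hairpins (Mir423, Mir103-1, Mir103-2, Mir140, Mir191, Mir25, Mir21a, Mir30d, Mir182 and Mir293) and up to 5 of each annotation list. Binomial (Clopper-Pearson) and Poisson intervals are exact at 95%, and for a count of 0 the limit is 3 counts. The measures were tested on simulated reads of 200 hairpins. The simulated arm was 3p for Mir320, 5p for the other members and either arm for the rest. Both start and tailed share came within 2 percentage points in 191, the 5 members among them. The other 9 share tags with related hairpins. Tails hidden because the hairpin goes on with the added base were not tested in this way. Nor were tails past the longest counted length. The simulation therefore cannot show that the tailed shares of the members are complete. Python 3.11.15, numpy 2.4.6, scipy 1.17.1, matplotlib 3.10.9 and RNAfold 2.7.2 were used.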

Additional observations from a re-analysis of the deposited data

How the results depend on the processing

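No paired analysis was possible because there was 1 library of each kind. The cause of the changes below was not tested, except where the setting itself removes reads. The share of hairpin reads on the 5 hairpins (3.42%) was 3.62% with tags of 20 to 24 nt and 5.26% with tags on several hairpins or on other transcripts left out, since this removes reads of other hairpins. The share at the main start, pooled over the 5 products (89.9%), was 48.6% by distinct tags. The pooled tailed share (21.6%) was 21.0% with tags of 10 reads or more, 17.4% with tails of 1 base and 82.6% by distinct tags. Chosen after seeing the data, leaving out Mir320 gave 0.0870%, 97.9% and 27.3% for these 3 shares. The SC1 reads (19) fell to 10 with tags of 17 nt, and to 0 with tags of 10 reads or more, since each tag had fewer. Of 40 values of single hairpins under other lengths or minimum reads, 15 left their counting interval: 7 tailed shares, all lower, and 8 shares of arm, start or end, all higher. Tails of Mir1224, Mir484 and Mir702 rest on 37 to 46 reads each. Tails that take a tag past 26 nt were not counted.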
